A study of Arabidopsis thaliana with 6 samples.

Results

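The data described here are the earliest time point of a salicylic acid time course in Arabidopsis thaliana, taken as the array whose title names 2 h of treatment. It is 1 of 6 arrays in the series and 1 of 4 salicylic acid arrays, and it carried 21500 probes, of which 21490 gave a ratio. Plants of the Columbia accession, 28 days old and collected whole without the root, had received 5 mM salicylic acid (SA) for 2 h, and the RNA of these plants (labelled with Cy5) was hybridised together with RNA of untreated plants of the same accession, age and tissue (labelled with Cy3). The arrays at 5, 10 and 24 h have the same layout of treated over untreated plants, with 1 array per time. The remaining 2 arrays set plants that overexpress SIBA (the gene SIB1, AT3G56710) against plants with the vector. The dyes were not swapped on any array, and the labels do not say whether the plants or the untreated RNA were shared between times, or how many plants each RNA came from. With 1 array there is no replicate at 2 h, so the 2 h values are given as sizes, without a test.

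SA is the hormone through which Arabidopsis sets up defence against biotrophic pathogens. The receptor NPR1 works with TGA transcription factors, which bind the promoters of SA-responsive genes, and NIMIN proteins and the CC-type glutaredoxin GRX480 act on the NPR1 and TGA complex. WRKY factors form a further layer of control, and PR1, PR2 and PR5 are the classic late outputs. SA is also removed by glucosyltransferases, and many TGA-dependent genes encode detoxification enzymes.

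Values are log2 ratios of SA-treated over untreated plants after background correction and loess, so 1 is a 2-fold difference. Correction added an offset of 50 to each channel, which pulls the ratio of a weak probe towards 0. The array was dim. The median signal above local background was 21.5 units in the SA-treated channel and 60 units in the untreated channel, and 24.1% of the probes lay in the range of the negative controls in both channels. A brighter channel of at least 100 units was found for 6740 probes, called bright below, against 14781 to 17590 on the later arrays. The later arrays therefore read many genes that the 2 h array could not, and the 2 h file also has another column layout than the later SA files, so brightness and time cannot be told apart. A probe weak in untreated plants was bright only where its SA-treated signal was high. Shares and medians over bright probes are therefore in part built in. The error given by the scanner software had a median of 0.22 log2 units over bright probes and ran between 0.60 and 0.88 for the 14 highest genes.

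Organ markers followed the labelled tissue. All 10 leaf markers were bright in untreated plants, from 1157 to 45457 units. The 10 flower markers and 11 seed markers had at most 50.6 and 51.7 units in untreated plants, near the floor of that channel. Of 12 root markers, SCR alone passed 100 units, with 73 units in SA-treated and 150 units in untreated plants. In whole plants, fewer cells of a type and less RNA per cell cannot be told apart.

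With the offset and loess, more probes were at least 4-fold above the untreated level after 2 h than at least 4-fold below it. At least 2-fold higher ratios were found for 826 of 21490 probes (3.84%) and at least 2-fold lower ratios for 497 (2.31%). Among bright probes these were 749 of 6731 (11.1%) and 497 (7.38%). The counts of the gene lists below are to be read beside these shares. A gene weak in untreated plants could hardly be counted as lower, so 0 lower in a list says little about such members. The median untreated signal was 50.9 units for the listed WRKY genes, 50.8 for rapid stress factors and 51.4 for detoxification genes. For tau glutathione transferases it was 49.2 units and for heat shock genes 59. The split of higher and lower genes depends on the scaling. Centring each array on its median, without loess, moved bright probes up by a median of 0.45 and gave 1516 higher and 164 lower probes. The ratios of the authors' deposited table gave 1080 higher and 1112 lower of 14433 probes. The scanner software's ratio gave 2396 higher and 2106 lower of 21490 probes. With the offset and loess, a 4-fold difference was reached by 255 higher and 27 lower probes, and the range ran from 7.17 to -2.95. The offset pulls the ratios of weak probes towards 0, and the SA-treated channel was the dimmer one. Whether the 4-fold split holds under the other settings was not tested. At the limit itself the nearest bright probes had ratios of 1.0 inside and 0.99 outside on the high side. The later arrays, which were brighter, had 1307 (6.09%) higher and 785 (3.66%) lower probes at 5 h, 1568 (7.3%) and 951 (4.43%) at 10 h, and 1051 (5.31%) and 1113 (5.63%) at 24 h.

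Among the 14 highest genes at 2 h were the transcription factors ATAF2, ZAT10, ERF-1 and ZAT6 and the glucosyltransferases UGT74E2, UGT85A1, UGT73B3 and UGT75B1. With the offset of 50 the largest ratio belonged to AT4G01870, annotated in the files as a TolB-related protein, while in the scanner software's ratio GRX480 stood higher, with 8.80 against 8.24. AT4G01870 had 22357 units in SA-treated plants against 78 units in untreated plants. Its ratio was 7.17 or 144-fold, and the ratios at 5, 10 and 24 h were 7.17, 5.79 and 4.58, the one at 5 h being a lower limit since the SA channel was saturated. The NAC factor ATAF2 had 12655 units in SA-treated against 91 units in untreated plants, a 73.2-fold difference, and log2 ratios of 6.19, 5.28, 4.21 and 2.93 from 2 to 24 h. For the zinc finger repressor ZAT10 the signals were 9906 units in SA-treated and 77 units in untreated plants, or 67.3-fold, and the ratios were 6.07, 4.38, 3.08 and 2.59. These 2 transcription factors and the ethylene response factor ERF-1 (AT4G17500), with 5.82, 4.34, 3.97 and 3.45, had their largest value at the earliest time and a smaller one at each later time.

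The glutaredoxin GRX480, which binds TGA factors, had 4776 units in SA-treated and 50.9 units in untreated plants. The untreated signal lay in the range of the negative controls, so the ratio is a limit, computed from the normalized channels and open to dye bias without a dye swap: GRX480 was at least 48.0-fold higher. Its log2 ratios at 5, 10 and 24 h were 4.88, 4.04 and 4.26. The glucosyltransferase UGT74E2, which acts on an auxin precursor, was likewise at least 45.2-fold higher at 2 h, with later ratios of 5.83, 5.24 and 2.91. UGT85A1, a glucosyltransferase of cytokinins, had ratios of 5.40, 5.77, 4.31 and 3.16 from 2 to 24 h. UGT73B3 stood at 5.36, 4.11, 3.57 and 2.21 and the oxophytodienoate reductase OPR1 at 5.31, 4.0, 2.80 and 0.82, so OPR1 was within 2-fold of the untreated level by the last time.

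The other members of the 14 highest were AT1G76600, the zinc finger gene ZAT6, the glucosyltransferase UGT75B1, the copper protein BCB and the late embryogenesis abundant protein SAG21, with 2 h ratios between 5.22 and 5.37. Over all 14, the median ratio was 5.38, 4.63, 4.01 and 2.90 from 2 to 24 h. These genes were chosen on their 2 h ratio, so smaller values at other times are in part built in. In the overexpressors their median was -0.03 on 1 array and 0.25 on the other, with the highest single value, 2.62, for SAG21.

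**Figure D1:**
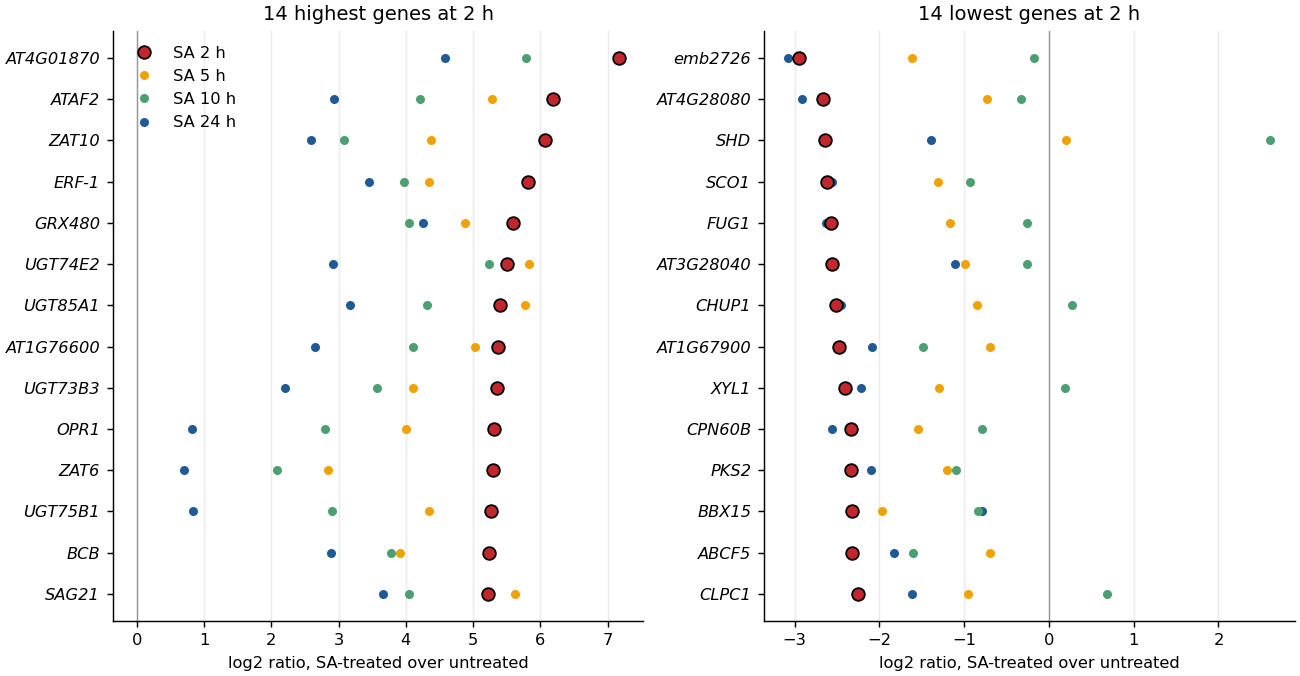
Log2 ratio of SA-treated over untreated plants (horizontal axis) for the 14 highest and 14 lowest genes at 2 h, with 1 array per time as coloured points and the 2 h value outlined. The 2 h values of the highest genes lie between 5.22 and 7.17, those of GRX480 and UGT74E2 and the 5 h value of AT4G01870 being lower limits, and those of the lowest genes between -2.95 and -2.26.

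Early-acting transcription factors were high at 2 h. Of 35 rapid stress factors, a list of zinc finger, ERF, CBF, MYB, NAC, calmodulin-like and touch genes, 26 were at least 2-fold higher, 0 lower and 9 within 2-fold, with a median of 1.83 against -0.01 over all probes. The list medians at 5, 10 and 24 h were 1.32, 1.3 and 0.70. ZAT12, a zinc finger protein of oxidative and light stress, was at least 30.3-fold higher at 2 h, with 2727 units in SA-treated and 47.4 units in untreated plants, and had ratios of 2.1 and 1.89 at 5 and 10 h. ZAT6 had 5.30, 2.84, 2.08 and 0.69 from 2 to 24 h, while AZF3 had 2.56 at 2 h and 3.66 at 5 h. RAP2.6 was at least 3.86-fold higher at 2 h and had 4.93 at 5 h. ATAF1, the relative of ATAF2, stood at 4.07, 3.04, 1.63 and 2.91.

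Several ethylene response factors had larger ratios at 2 h than later. ERF104 was at least 14-fold higher at 2 h and had ratios of 1.32, 1.24 and 0.70 later. ERF105 was at least 5.96-fold higher at 2 h and had 0.86, 0.65 and 0.70 later. ERF5 stood at 1.60, 0.25, 0.16 and 0.67, ERF11 at 1.59, 0.53 and 0.21 with no value at 24 h, and ERF4 at 1.35, 0.40, -0.16 and 0.28. CBF2, a regulator of the cold response, was at least 3.25-fold higher at 2 h and had -0.27, -0.24 and -0.46 later, and its neighbours CBF1 and CBF3, which are close in sequence, were dim at 2 h with 0.42 and 0.43. Of 25 genes with an ERF symbol, 10 were at least 2-fold higher at 2 h and 1 lower, against 4, 4 and 2 higher at 5, 10 and 24 h. The touch gene TCH4, a xyloglucan endotransglucosylase, stood at 3.84, 2.95, 2.32 and 1.75.

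Of the 26 listed WRKY genes, 0 were at least 2-fold lower at 2 h. Their median untreated signal was 50.9 units, near the floor, where a lower ratio could hardly be seen. At least 2-fold higher ratios were found for 15, and the list median was 1.12 at 2 h and 1.02, 1.37 and 1.21 at 5, 10 and 24 h. WRKY54, a partner of WRKY70, had 1087 units in SA-treated and 60 units in untreated plants and ratios of 3.45, 2.66, 2.92 and 1.31. WRKY70 itself, which acts downstream of NPR1, had 3265 units in SA-treated and 268 units in untreated plants and ratios of 2.87, 1.51, 3.75 and 1.53. WRKY40 was at least 9.64-fold higher at 2 h. WRKY11 stood at 1.05 at 2 h and at -0.53, -0.46 and 0.09 later, and WRKY46 at 1.18, 0.35, 0.28 and 0.08, though WRKY46 was dim. WRKY60, WRKY50 and WRKY41 were dim as well. Over all 67 genes with a WRKY symbol, most of them dim, 15 were higher and the median was 0.10.

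Within the SA pathway, a few genes were far above the untreated level at 2 h, and many probes were dim. NIMIN1, an inhibitor of NPR1, had 2356 units in SA-treated and 52.5 units in untreated plants, and ratios of 4.61, 5.34, 4.88 and 3.74. Its untreated signal was close to the negative-control range, and the 2 h ratio was 6.52 with an offset of 1. The order of its 2 h and 5 h values can therefore not be read. The receptor NPR3 stood at 1.67, 2.29, 2.70 and 0.82 and NPR1 at 0.86, 1.23, 1.11 and 1.32. The 7 TGA genes had 2 h ratios between -0.60 and 0.16, and 6 of them were dim. In all, 2 of the 11 receptors and cofactors with a probe were at least 2-fold higher and 0 lower.

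Among 10 SA-modifying enzymes, 4 were at least 2-fold higher at 2 h, 0 were lower and the other 6 were dim. UGT75B1, which also forms sugar esters of other benzoates, had 9256 units in SA-treated and 133 units in untreated plants and ratios of 5.26, 4.35, 2.89 and 0.84. UGT76B1, a glucosyltransferase of SA and isoleucic acid, was at least 36.8-fold higher, and UGT74F2, which makes the SA glucose ester, stood at 3.93, 5.06, 4.31 and 2.99. The SA hydroxylase DMR6 had ratios of 2.05, 3.72, 2.90 and 1.95. UGT74F1, the close relative that makes SA glucoside, stood at -0.02 at 2 h, where it was dim, and at 3.55, 2.71 and 1.93 later.

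Genes of SA synthesis were mixed. Regulators and the exporter were measured at 2 h: SARD1, a factor that binds the promoter of ICS1, had ratios of 2.44, 1.2 and 1.2 at 2, 5 and 10 h, CBP60g, its relative, 1.47, 1.81, 1.41 and 1.65, and the SA exporter EDS5 1.72, 2.63, 1.14 and 1.14. PAD4, an immune lipase-like protein, stood at 1.84, 3.49, 2.16 and 1.11. SARD4, an enzyme of pipecolic acid synthesis, had 2536 units in SA-treated and 119 units in untreated plants and ratios of 3.66, 4.31, 2.14 and 2.37. The synthesis enzymes ICS1 and PBS3 were too dim at 2 h to be placed against these genes, with ratios of 0.49 and 0.14, and had 2.65 and 3.35 at 5 h. In this list of 12 genes, 5 were at least 2-fold higher and 0 lower at 2 h.

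Of the classic outputs, PR5 alone was bright at 2 h. PR1 had 10.7 units in SA-treated and 46.4 units in untreated plants, both near the floor of their channel, so its 2 h level cannot be read, and ratios of 0.71, 2.47 and 2.89 at 5, 10 and 24 h. PR2, dim at 2 h, stood at 0.31, -0.05, 0.01 and 0.20 and PR5 at 0.16, -0.25, 0.58 and 0.82. SIB1, the gene overexpressed in the other arm of the study and a partner of plastid sigma factor 1, had 1966 units in SA-treated and 48.9 units in untreated plants and ratios of 4.46, 3.71 and 2.89 at 2, 5 and 10 h. The scanner software did not mark its untreated signal as in the negative-control range, but that signal was close to it, and the 2 h ratio was 6.60 with an offset of 1. Its homologue SIB2 was dim, with 0.12. LURP1, a gene of late upregulation in response to a downy mildew, had 3.65, 3.12, 3.85 and 3.28, while the ankyrin gene ANK (AT5G54610) stood at -0.04, 2.06, 2.02 and 2.71. Of 13 outputs, 2 were higher and 0 lower at 2 h, against 5, 8 and 6 higher at 5, 10 and 24 h.

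Detoxification genes were high at 2 h, with 20 of 25 at least 2-fold higher and 0 lower. Their median was 1.87 at 2 h and 2.81, 2.58 and 1.32 at 5, 10 and 24 h. Of 58 genes with a UGT symbol, 19 were higher and 2 lower at 2 h. The glutaredoxin GRXS13 had 2596 units in SA-treated and 50.7 units in untreated plants and ratios of 4.78, 5.61, 4.72 and 3.64. This untreated signal was also close to the negative-control range, and the 2 h ratio of GRXS13 was 6.80 with an offset of 1. Among tau glutathione transferases, 5 of 28 were higher, 0 lower and 23 within 2-fold at 2 h, against 13 higher at 10 h. Only 11 of the 28 were bright at 2 h, the 5 higher ones among them, so many of the 23 could not be read. GSTU24 was at least 22.3-fold higher and GSTU7 stood at 3.82, 3.43, 2.52 and 2.02. GSTU19, an abundant member, had 24055 units in SA-treated and 2137 units in untreated plants and a 2 h ratio of 2.59.

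Heat shock genes were moderately higher, with 11 of 19 at least 2-fold higher, 0 lower and a median of 1.19 at 2 h, against medians of 2.06, 2.19 and 1.63 at 5, 10 and 24 h. The wider group of 23 genes with an HSP symbol was split, with 8 higher and 5 lower and a median of 0.55, or -0.63 over its 13 bright members. The cytosolic chaperone HSP70-4 had ratios of 2.24, 4.65, 3.86 and 3.63 and the disaggregase HSP101 1.63, 3.42, 3.48 and 2.17. Pattern immunity genes had 9 of 26 higher and 0 lower, and a median of 0.62 at 2 h and 0.76, 1.2 and 0.89 later. PHI-1, a phosphate-induced cell expansion gene, stood at 3.88, 2.6, 1.71 and 1.60, and the syntaxin PEN1, which works in penetration resistance, had 2655 units in SA-treated and 232 units in untreated plants and ratios of 2.79, 2.11, 1.21 and 1.58. PAD3, the last enzyme of camalexin synthesis, was at least 4.66-fold higher at 2 h and had 4.67 and 4.22 at 5 and 10 h.

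Genes of other hormones showed a few large members at 2 h, and many other members were dim. Bright were 16 of 29 jasmonate, 15 of 29 auxin and 10 of 24 abscisic acid and dehydration genes. Of 29 jasmonate genes, 7 were at least 2-fold higher and 0 lower at 2 h, against 4, 3 and 1 higher at 5, 10 and 24 h, and the list median was 0.35. OPR3, the reductase of jasmonate synthesis, had 2.43, 3.86, 2.75 and 1.0, the repressor JAZ9 2.12, 2.21, 0.80 and 0.67, and the lipoxygenase LOX3 1.72, 0.66, 0.07 and 0.35. The jasmonate and ethylene output PDF1.2 was in the range of the negative controls in both channels. Of 29 auxin genes, 2 were higher and 1 lower, beside 3.84% and 2.31% of all probes. GH3.3, which conjugates auxin to amino acids, had 2826 units in SA-treated and 74 units in untreated plants and ratios of 4.43, 3.71, 2.27 and 1.13. Of 24 abscisic acid and dehydration genes, 3 were higher and 0 lower at 2 h. On the brighter later arrays 8, 4 and 9 were lower at 5, 10 and 24 h. The cold genes COR15A and COR15B stood at 0.74 and 0.49 at 2 h and at -2.75 and -3.90 at 5 h. ERD10 and COR47, which encode dehydrins, stood at -0.25 and -0.01 at 2 h and at -1.93 and -1.39 at 5 h.

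**Figure D2:**
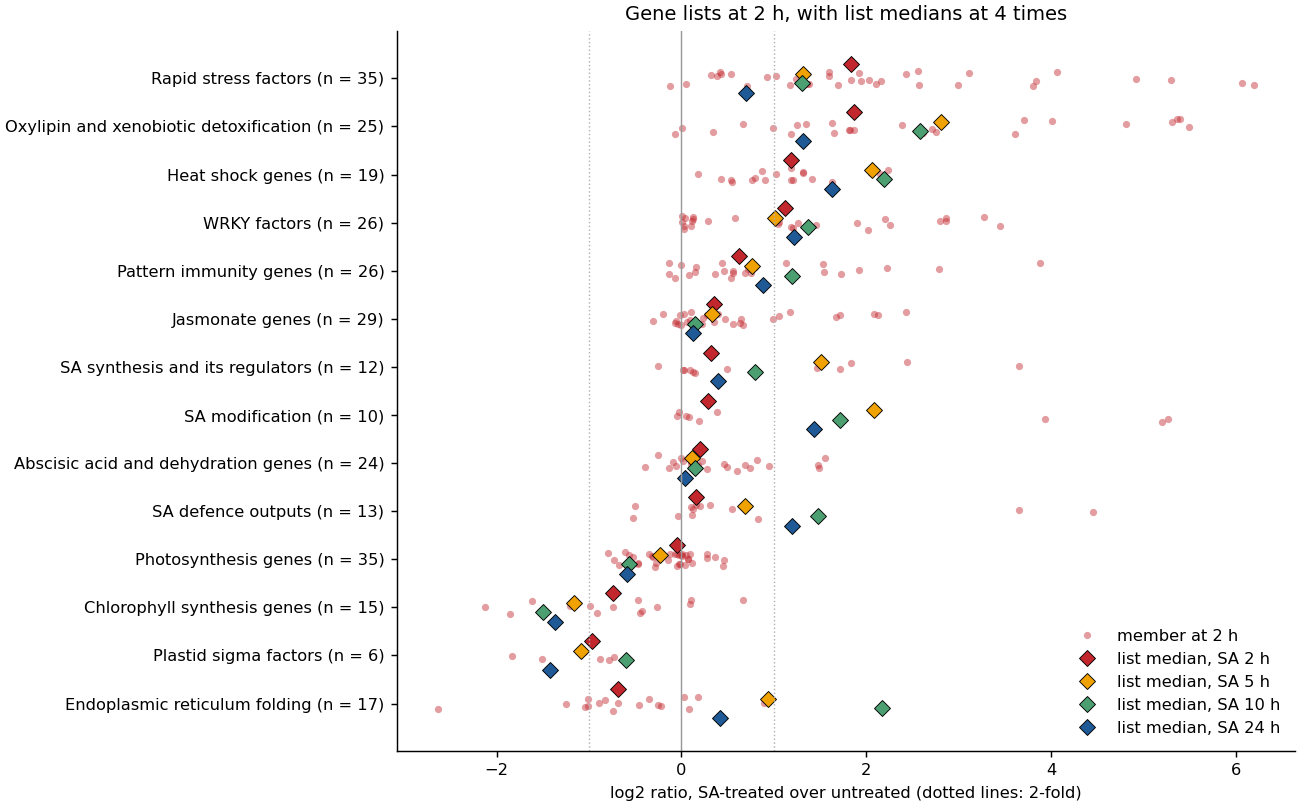
Log2 ratio of SA-treated over untreated plants for the members of 14 gene lists at 2 h (small points) and the list medians at 2, 5, 10 and 24 h (diamonds), with dotted lines at 2-fold. The rapid stress factors have their largest median at 2 h, 1.83, and the endoplasmic reticulum folding genes have a median of -0.69 at 2 h and 2.17 at 10 h.

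Genes whose 2 h ratio stood farthest above all later ratios were small in number. Of 698 bright genes at least 2-fold higher at 2 h with a value at every later time, 298 had their largest ratio at 2 h, and 64 of these exceeded each later ratio by at least 1 log2 unit. The 698 were chosen on their 2 h ratio, so a largest value at 2 h is in part built in. No count for genes chosen at another time is given beside it. DIC2, a mitochondrial dicarboxylate carrier, had 1797 units in SA-treated and 80 units in untreated plants and ratios of 3.73, 0.80, -0.12 and 0.14, so it was within 2-fold of the untreated level from 5 h. AT5G35735, annotated in the files as an auxin-responsive family protein, had 3325 units in SA-treated and 67.5 units in untreated plants and ratios of 4.76, 1.57, 1.88 and 1.45. The AP2 domain gene AT1G71520 stood at 3.38, 1.01, 0.09 and 0.26, and AT5G10830, annotated as embryo-abundant protein-related, at 4.44, 2.47, 0.80 and 0.27. PMAT1, which adds malonyl groups to phenolic glucosides, had 4.81, 2.76, 1.80 and 1.25. IGMT4, a methyltransferase of indole glucosinolates, was the only one of the 8 genes farthest above their later values to fall at least 2-fold below the untreated level afterwards, with 1.66, -1.17, -0.41 and -1.02. Its neighbours are close in sequence, so its probe may read several of them.

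The difference between 2 h and the mean of the later times was tested with limma over the 4 SA arrays, in which the 2 h array was assumed to vary like the later ones. Of 21474 probes 0 (0%) had an adjusted p under 0.05 together with a difference of at least 1. The smallest Benjamini-Hochberg adjusted p from limma was 0.965, and 1069 probes (4.98%) had an unadjusted p under 0.05. Its error is the spread among the 5, 10 and 24 h arrays, so changes between the later times count as error, and the 2 h array adds no spread of its own. The test therefore does not settle whether any gene differed between 2 h and the later times, and the time patterns given here are sizes.

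**Figure D3:**
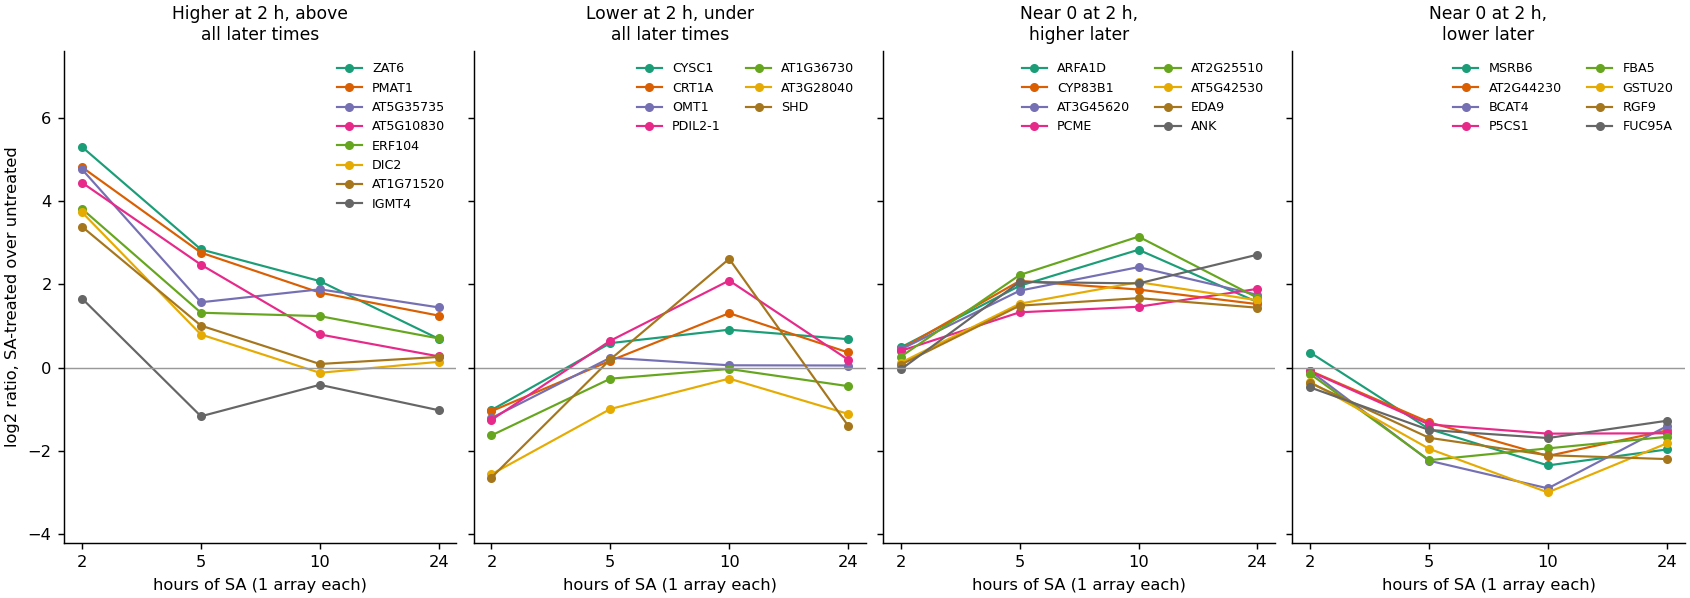
Log2 ratio of SA-treated over untreated plants (vertical axis) against hours of SA, 1 array per time, for 4 sets of up to 8 genes chosen by the shape of their ratios. DIC2 and AT1G71520 have 2 h ratios of 3.73 and 3.38 and are between -0.12 and 0.26 at 10 and 24 h, while SHD is at -2.64 at 2 h and 2.61 at 10 h, and the ERF104 value at 2 h is a lower limit.

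Lower genes at 2 h included several of plastid gene expression and protein handling. The lowest ratio belonged to emb2726, a plastid translation elongation factor Ts, with 209 units in SA-treated and 1288 units in untreated plants, or 7.71-fold lower, and ratios of -2.95, -1.62, -0.17 and -3.08. Of the other plastid translation factors, SCO1 (elongation factor G) stood at -2.61, -1.3, -0.93 and -2.56 and FUG1 (initiation factor 2) at -2.57, -1.17, -0.25 and -2.63. The plastid chaperonin CPN60B had 675 units in SA-treated and 2207 units in untreated plants and ratios of -2.34, -1.55, -0.79 and -2.56, and the Clp chaperone CLPC1 had -2.26, -0.95, 0.69 and -1.61. CHUP1, which positions chloroplasts, stood at -2.51, -0.85, 0.28 and -2.45. The rest of the 14 lowest were SHD, AT4G28080, AT3G28040, AT1G67900, XYL1, PKS2, BBX15 and ABCF5, between -2.66 and -2.32. Over the 14, the median was -2.49, -1.08, -0.29 and -2.16 from 2 to 24 h, and -0.06 and 0.07 in the overexpressors. Of 22 genes with a TIC or TOC symbol, named for plastid protein import, 3 were at least 2-fold lower and 0 higher at 2 h. Of all probes 2.31% were lower, and of bright probes 7.38%.

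Chlorophyll synthesis genes were lower or within 2-fold at 2 h, with 5 of 15 at least 2-fold lower and 0 higher. Their median was -0.74 at 2 h and -1.16, -1.49 and -1.36 later, but 0.02 at 2 h when the array was centred on its median. GUN5, the large subunit of magnesium chelatase, had 3265 units in SA-treated and 7977 units in untreated plants and ratios of -2.13, -1.22, -2.33 and -1.64, and HEMA1, glutamyl-tRNA reductase, -1.85, -0.99, -2.1 and -2.02. The 2 h level of photosynthesis genes, which were among the brightest, depended on the scaling. After loess, 0 of 35 with a value were higher or lower by 2-fold, and the median was -0.04. After median centring 17 were at least 2-fold higher, and the median was 0.98. All 6 plastid sigma factors had 2 h ratios below 0, with 3 at least 2-fold lower, or 1 after median centring and 2 within length classes, among them SIG1, the partner of SIB1, with -1.83, -0.91, -0.96 and -1.99.

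The ratio at 2 h was lower for longer genes. Among 6721 bright probes with a RefSeq gene length, introns included, the median ratio was 0.15 for genes of up to 1000 bases, 0.18 for over 1000 and up to 1500, 0.11 for over 1500 and up to 2000, -0.04 for over 2000 and up to 3000, -0.27 for over 3000 and up to 4000, -0.47 for over 4000 and up to 6000 and -0.62 for longer ones. At least 2-fold lower were 3.56% of the shortest class and 17.8% of the longest, and at least 2-fold higher 20.1% and 0.93%. Across these genes Spearman's rho between ratio and length was -0.32, -0.06, 0.05 and -0.19 from 2 to 24 h, and -0.02 and 0.07 in the overexpressors. The pattern was not particular to 2 h: the longest class had a median of -0.68 at 24 h, against 0.02 and 0.36 at 5 and 10 h. The probes share each array's RNA and labelling, and genes are not independent replicates. Lower genes at 2 h had a median length of 3102 bases, higher genes 1951 and all bright genes 2404. The part of RNA quality or labelling in this pattern was not tested.

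When each ratio was taken against the median of its length class, an alternative chosen after seeing the data, 370 of 6721 bright probes were at least 2-fold lower and 776 higher. The 14 lowest genes, with a median length of 4213 bases, then stood between -2.48 and -1.79, and emb2726 at -2.48. The 14 highest stood between 5.04 and 7.22. Over the bright members, the chlorophyll list then had a median of -0.85 and the sigma factors -0.84, against -0.92 and -0.97 before this step.

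**Figure D4:**
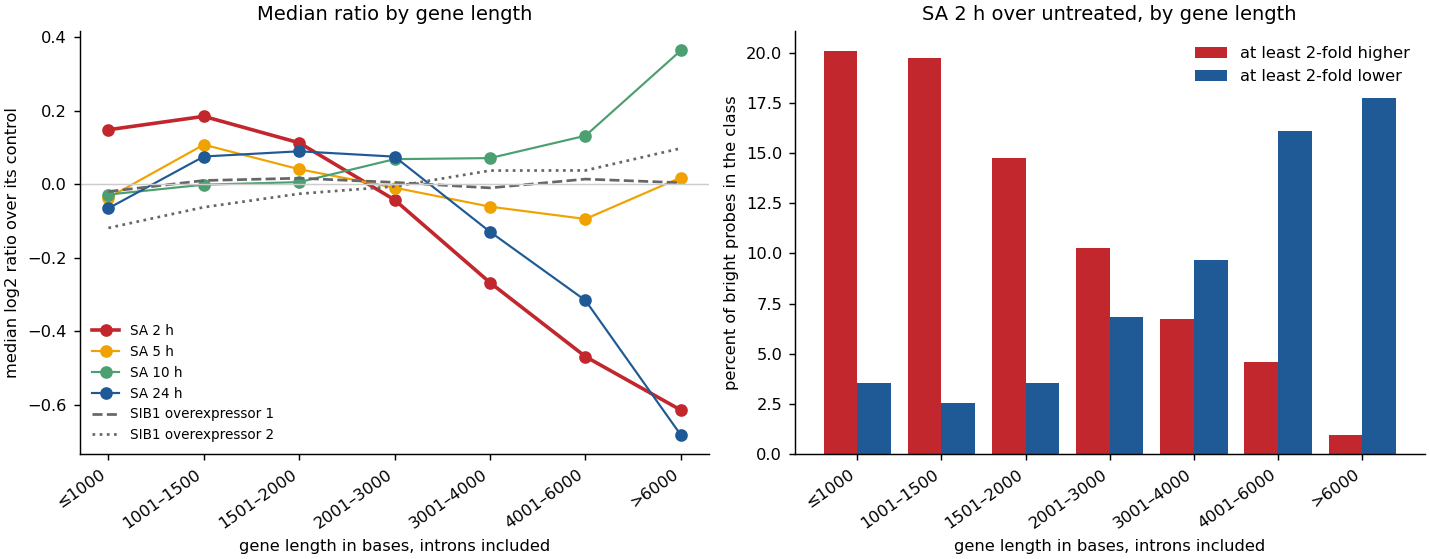
Left, median log2 ratio over the control by class of gene length for bright probes, with a line for each array; right, the share of bright probes at least 2-fold higher or lower at 2 h in each class. At 2 h the median is 0.15 in the shortest and -0.62 in the longest class, and at 24 h it is -0.07 and -0.68. On the SIB1 arrays it stays between -0.12 and 0.10.

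Genes of folding in the endoplasmic reticulum stood below the untreated level at 2 h and above it later. Of 17, 5 were at least 2-fold lower and 0 higher at 2 h, against 0 lower and 8 higher at 5 h and 0 lower and 14 higher at 10 h. The list median was -0.69, 0.94, 2.17 and 0.42 from 2 to 24 h, and the 2 h median was -0.25 after median centring and -0.52 over 14 bright members within length classes. The 5 lower genes became 1 after median centring and 2 within length classes. SHD, the HSP90 chaperone of this compartment, had 140 units in SA-treated and 793 units in untreated plants and ratios of -2.64, 0.20, 2.61 and -1.39. The chaperones BIP1 and BIP2, nearly identical in sequence, stood at -0.83 and -0.74 at 2 h and at 2.70 and 2.58 at 10 h. The disulfide isomerases PDIL2-1 and PDIL2-3 had -1.25 and -1.02 at 2 h and 2.09 and 2.48 at 10 h, and calreticulin CRT1A -1.04 and 1.31. BZIP60, a transcription factor that switches these genes on, was already higher at 2 h, with ratios of 2.43, 3.79, 2.94 and 1.94. BIP3, a stress-specific member, was dim at 2 h with 0.03, was at least 3.6-fold higher at 5 h and had 4.39 at 10 h.

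Other genes were also lower at 2 h than at all later times, and no shared pathway was tested among them. Of 484 bright genes at least 2-fold lower at 2 h with a value at every later time, 240 had their lowest ratio at 2 h, and 14 lay at least 1 log2 unit under each later one. The 484 were likewise chosen on their 2 h ratio, so a lowest value there is in part built in. CYSC1, the mitochondrial cyanoalanine synthase, stood at -1.01, 0.59, 0.91 and 0.69, and OMT1, a methyltransferase of lignin and flavonols, at -1.21, 0.24, 0.06 and 0.05. AT1G36730, annotated as translation initiation factor 5, had -1.62, -0.26, -0.03 and -0.44, and the receptor kinase AT3G28040 had -2.56, -0.99, -0.26 and -1.11. After median centring CYSC1 and OMT1 were within 2-fold at 2 h, with -0.20 and -0.41.

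Some bright genes that were far from the untreated level later were close to it at 2 h. Of 3606 bright genes within 0.5 log2 units of 0 at 2 h, 30 were at least 2-fold higher and 23 at least 2-fold lower at all 3 later times. ARFA1D, a small GTPase of vesicle traffic, had 5236 units in SA-treated and 2119 units in untreated plants and ratios of 0.49, 1.97, 2.83 and 1.58. CYP83B1, an enzyme of indole glucosinolate synthesis, stood at 0.45, 2.08, 1.88 and 1.53 and EDA9, a serine synthesis enzyme, at 0.07, 1.49, 1.67 and 1.44. On the lower side FBA5, a fructose-bisphosphate aldolase, had 4716 units in SA-treated and 2958 units in untreated plants and ratios of -0.15, -2.22, -1.94 and -1.66. BCAT4, which opens the methionine chain elongation of glucosinolates, stood at -0.08, -2.23, -2.90 and -1.40, GSTU20 at -0.34, -1.94, -2.99 and -1.82, and the proline synthesis enzyme P5CS1 at -0.09, -1.36, -1.58 and -1.57. All of them had at least 100 units in 1 channel at 2 h.

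Of 22 clock genes, 1 was at least 2-fold higher and 2 lower at 2 h, beside 3.84% and 2.31% of all probes. Only 8 of them were bright, with a median of -0.71, against 0.12 over all 22. The morning factor CCA1 had 55.7 units in SA-treated and 276 units in untreated plants and ratios of -1.78, 0.65, -1.69 and -0.79, and LNK2, which works with it, -1.13, 0.55, -2.29 and -0.40. LUX, a component of the evening complex, was at least 3.33-fold higher. The labels do not give the hour of harvest, and its part in the 2 h ratios was not tested. Cytosolic ribosomal protein genes, with a median of -0.09 at 2 h, had 1 of 15 lower, RPL5A at -1.24, and 0 higher. Their median was 0.52 after median centring.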

How the data were processed

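RNA was extracted with Trizol, amplified linearly and labelled with Cy3 for control and Cy5 for treated plants, per the labels' protocols. Each array's deposited file gives, per the file headers, the mean and local background intensity of every spot in the red and green channels, as read by Agilent Feature Extraction. The same deposited files hold that software's log10 ratio, red over green, after dye normalization. The deposited series table holds 1 more value per probe, found here to be a linear Cy5 over Cy3 ratio: its log2 correlated at 0.985 with the log2 ratios computed here at 2 h, and its column medians were 0.994, 0.959, 0.966 and 1.03 from 2 to 24 h. The sources used here give neither how the authors centred it, nor the software version, nor a genome build.

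Background was corrected with limma's normexp (offset 50), followed by loess within each array, leaving out control spots and 10 spots with outlier marks at 2 h (1722 at 24 h). R 4.3.3, limma 3.58.1, Python 3.11.15 and matplotlib 3.10.9 were used. The 2 h ratios have no test, and a difference of at least 2-fold was counted. The difference of 2 h from the later mean used lmFit and eBayes on log2 ratios over 4 arrays, with Benjamini-Hochberg adjustment. No replicate array stands behind its p-values, which reflect the spread among the 3 later times. On simulated data the fit recovered 0%, 2%, 26% and 72% of differences of 1, 2, 3 and 4 log2 units, so it missed most differences of up to 3. Precision is limited by the number of arrays.

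A single locus is given for 21342 probes, and 21315 of these were found in RefSeq's table for TAIR10.1, used for symbols and gene lengths. Since the files name no build, no coordinates are printed. Of 567 listed gene symbols, 534 had a probe. A ratio is given as "at least" where the weaker channel lay in the negative-control range or was a surrogate at 2 h, or lacked the well-above-background mark later, or the stronger one was saturated. At 2 h that mark was set on all 21500 probes in both channels and was not used.

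Named genes were the 14 highest and 14 lowest bright genes, 8 in each of 4 time patterns, up to 4 bright members of each list by size, and SIB1, SIB2, PR1, PR2, PR5, ICS1, WRKY70, PDF1.2, NPR1, GRX480 and NIMIN1. Of these genes 1 is not reported here, and the text does not describe all of the others. Other list members named in the text were chosen after their values were seen. The array and the gene lists were chosen with earlier results of these data known. Groups by gene symbol and the gene-length classes were added after seeing the data.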

Additional observations from a re-analysis of the deposited data

Results flagged for a closer look

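There were 6 named genes that were at least 2-fold on 1 side of the untreated level at 2 h and at least 2-fold on the other side at a later time, each time with 1 array, and the differences between single times were not tested. Higher at 2 h and lower later were IGMT4, with 1.66 at 2 h against -1.17 at 5 h and -1.02 at 24 h, and KIN2, a cold-inducible gene close in sequence to KIN1, with 4217 units in SA-treated and 879 units in untreated plants at 2 h and a ratio of 1.49 there against -1.81 at 5 h and -2.24 at 24 h. Lower at 2 h and higher later were SHD, PDIL2-1, CRT1A and PDIL2-3. SHD had -2.64 at 2 h against 2.61 at 10 h, and -1.39 at 24 h. PDIL2-1 had -1.25 against 2.09 at 10 h, and CRT1A -1.04 against 1.31 at 10 h. PDIL2-3 had -1.02 against 1.11 at 5 h and 2.48 at 10 h. After median centring the 2 h ratios of PDIL2-1, CRT1A and PDIL2-3 were -0.75, -0.51 and -0.57, and that of SHD -2.01. Within length classes CRT1A and PDIL2-3 had -0.78 and -0.75, PDIL2-1 -1.21 and SHD -2.17. In the fit of 2 h against the later mean, limma's adjusted p was 0.965 for KIN2 and IGMT4 and 0.992 for SHD.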

How the results depend on the processing

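The counts at 2 h depend on the background offset and on the scaling. An offset of 16 gave 1407 higher and 908 lower probes, an offset of 1 gave 2751 and 1996, plain subtraction 1207 and 873, the scanner software's ratio 2396 and 2106, and the ratios in the authors' deposited table gave 1080 and 1112 of 14433 probes, against 826 and 497 in the report. Median centring without loess gave 1516 and 164. Keeping outlier marks gave 828 and 499. Leaving out probes in the negative-control range of both channels, chosen after seeing the data, changed neither count. The offset holds such probes near 0, so this step could hardly have changed the counts. The fit of 2 h against the later times was repeated under 10 alternatives, among them leaving out the 5, 10 or 24 h array. It missed most simulated differences of up to 3 log2 units, so its like outcome under these alternatives does not show stability. Of the 109 named genes at least 2-fold at 2 h, 17 came within 2-fold after median centring, all of them lower ones, 6 within gene-length classes and at most 2 under each of the others. No named gene at least 2-fold at 2 h changed sign under these alternatives. Median centring turned the 2 h medians of the photosynthesis genes to 0.98, the leaf markers to 0.78, the ribosomal proteins to 0.52 and the chlorophyll genes to 0.02. No paired analysis was possible because each time has 1 array and the labels pair no samples. The dim 2 h array limits what can be read of weak genes such as PR1, ICS1 and PR2, whose small ratios there do not show that they were unchanged.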

Other observations

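The CC-type glutaredoxins and tau glutathione transferases aside, redox and mitochondrial genes also had a few large members at 2 h. Of 17 peroxide and redox enzymes, 5 were at least 2-fold higher and 0 lower, among them the proline dehydrogenase PDH1, with 2044 units in SA-treated and 92 units in untreated plants and ratios of 3.71, 3.84, 3.18 and 3.16 from 2 to 24 h, and the dehydroascorbate reductase DHAR2, with 3.23, 2.34, 1.88 and 1.22. Of 14 mitochondrial stress genes with a value, 4 were higher and 0 lower. The NAD(P)H dehydrogenase NDB2 stood at 2.55, 2.88, 2.68 and 0.94 and the alternative oxidase AOX1A at 1.1, 1.86, 1.85 and 1.05. Senescence and dark-induced genes had 8 of 17 higher and 0 lower at 2 h, with a median of 0.17 over all members. In the scanner software's ratio that median was 1.87. The 10 bright members, picked by their own 2 h signal, had a median of 2.45, which is in part built in. The sugar-repressed gene DIN10 stood at 3.61, 3.07, 4.25 and 2.29.

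Cell wall loosening genes were split at 2 h, with 3 of 21 higher and 3 lower. Of all probes 3.84% were higher and 2.31% lower, and of bright probes 11.1% and 7.38%. The xyloglucan endotransglucosylases TCH4 and XTH18 were higher, XTH18 with 2.70, 2.21, 0.74 and 0.48, while XTH9 had 311.5 units in SA-treated and 635 units in untreated plants and ratios of -1.43, -1.22, -0.95 and -0.88. Of 15 genes with a SAUR symbol, named for small auxin-up RNAs, 2 were higher and 0 lower at 2 h, where only 5 were bright. On the brighter later arrays 5, 8 and 6 were lower at 5, 10 and 24 h.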
